A study of Arabidopsis thaliana with 11 samples.

Results

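INO (INNER NO OUTER, AT1G23420) and TSO1 (AT3G22780) are Arabidopsis genes known for their part in building the ovule. They were chosen as the probe sets annotated to these symbols, which gave 1 probe set for each, 262989_at for INO and 258324_at for TSO1, of 22746 probe sets that are not array controls and of 13356 genes named by a probe set of their own. The arrays were 1-colour Affymetrix ATH1 arrays of the accession Landsberg erecta, with 4 arrays of ovary, 3 of stigma and 4 of whole seedling. The pistils came from buds that had lost their anthers at stage 8 and were harvested after 1 day, and scissors divided each into stigma and ovary. The division into stigma and ovary arrays rests on the array titles, since the arrays titled stigma carry the same description of ovary isolation as those titled ovary, with pistil given as their source. Seedlings were 10 days old and had grown on Murashige and Skoog plates. All plants were of this 1 accession with no mutant and no chemical treatment named, the labels do not say how many plants were pooled, and nothing says that arrays of a tissue came from separate cultures, so p-values measure array-to-array spread alone, part of which may be technical.

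INO belongs to the YABBY family of plant transcription factors, which mark the outward-facing (abaxial) side of lateral organs. It is known from the outer integument, the coat layer that grows around one side of the young ovule, and loss of INO leaves the ovule with an inner integument and no outer one. TSO1 carries CXC domains, cysteine-rich DNA-binding domains of the kind found in the animal protein LIN54, a subunit of a complex that controls cell cycle genes. Loss of TSO1 function disturbs division and expansion in floral meristems and ovules, and TSO1 is known to work together with MYB3R proteins, which control genes of mitosis.

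INO transcript was highest in the ovary, and its levels in stigma and seedling could not be told apart. The signal, a linear intensity that the authors scaled to a common array mean, was 515.9, 589.6, 604 and 605.1 on the 4 ovary arrays, 201, 247.4 and 136.9 on the 3 stigma arrays, and 153.5, 110.3, 272.4 and 119.2 on the 4 seedling arrays. Every ovary array was above every stigma and seedling array, while stigma and seedling arrays overlapped. INO thus averaged 579 ± 42.4 in ovary, 195 ± 55.5 in stigma and 164 ± 74.7 in seedling (SD, n = 4, 3 and 4).

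TSO1 transcript fell into 3 separate levels. The signal was 1496.2, 1417.1, 1479.1 and 1650.3 on the ovary arrays, 955.6, 759.8 and 748.9 on the stigma arrays, and 576.9, 586.3, 561.5 and 390.6 on the seedling arrays. No array of 1 tissue reached into the range of another, and the order was ovary, stigma, seedling. TSO1 averaged 1511 ± 99.1 in ovary, 821 ± 116 in stigma and 529 ± 92.7 in seedling (SD, n = 4, 3 and 4). In bulk tissue, fewer cells that make a transcript and less transcript per cell cannot be told apart. The signals of the INO and TSO1 probe sets are not compared with each other, since each probe set has its own brightness per transcript.

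**Figure D1:**
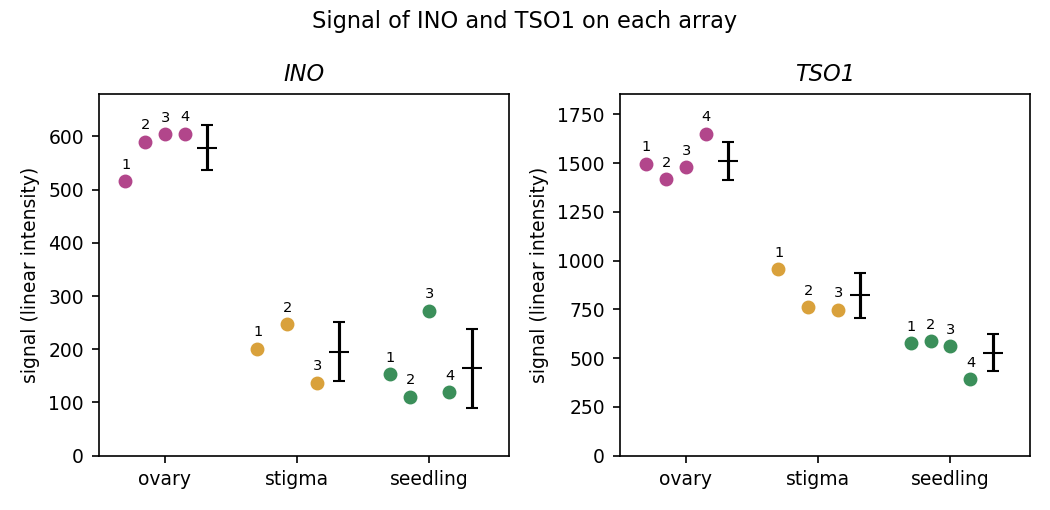
Signal (linear intensity, axis from 0) of INO on the left and TSO1 on the right for each array, with the array's replicate number, in ovary, stigma and seedling; the bar beside the points is the mean and SD. INO lies between 515.9 and 605.1 in ovary and at or below 272.4 elsewhere, and TSO1 shows 3 ranges that do not overlap.

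Differences between tissues were tested on log2(signal + 17.3), which understates the change of dim transcripts, in limma with 1 mean per tissue over all 11 arrays. P-values were adjusted by Benjamini-Hochberg over the 15524 probe sets tested, and a probe set was called if its adjusted p was under 0.05 and its difference at least 2-fold. INO and TSO1 both passed the filter on low signal, INO through the ovary arrays and 4 others.

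In the ovary against the stigma, the comparison within the pistil, INO was called and TSO1 was not, against 9.51% of all tested probe sets called higher in ovary. INO was higher in ovary by 1.52 on the log2 scale (SE 0.27, 95% interval 0.95 to 2.09, adjusted p = 0.000663), a ratio of mean signals of 2.97. Of all tested probe sets, 4.39% had a difference at least as high. TSO1 was higher in ovary by 0.87 (SE 0.16, 95% interval 0.52 to 1.22), a ratio of mean signals of 1.84. This passed the test (adjusted p = 0.00103 in limma), as 20.7% of probe sets did in that direction, but stayed short of 2-fold, and 12.1% of tested probe sets had a difference at least as high.

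The arrays of ovary and stigma were scanned in 2 periods that both held the 2 tissues, which allowed a difference within each. Period A held ovary 1, ovary 2 and stigma 1, with stigma 1 scanned on an earlier day than the ovary arrays, and period B held ovary 3, ovary 4, stigma 2 and stigma 3, all scanned on the same day. INO was higher in ovary by 1.38 (SE 0.43, adjusted p = 0.0398) in period A and by 1.62 (SE 0.35, adjusted p = 0.00484) in period B. TSO1 was higher by 0.60 (SE 0.21, adjusted p = 0.067) in period A, where it no longer passed, and by 1.03 (SE 0.17, adjusted p = 0.00118) in period B, where it was also past 2-fold. Period A had 1 stigma array, assumed to vary like the arrays of other groups. The difference between the periods itself was 0.24 (SE 0.38) for INO and 0.43 (SE 0.20) for TSO1 in limma. With 1 stigma array in period A, these values cannot decide whether the ovary and stigma difference changed between the periods. Stigma 1 also had the highest ratio of 3′ to 5′ GAPDH control signal, a measure of RNA and labelling quality, at 2.27 on the log2 scale, against 1.09 and 1.12 on the other stigma arrays and 0.70 to 1.11 on ovary arrays. With this ratio as a covariate INO was higher in ovary by 1.69 and TSO1 by 0.99.

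In the ovary against the whole seedling both genes were called, against 11.1% of tested probe sets called higher in ovary and 30.5% with an adjusted p under 0.05 in that direction. INO was higher by 1.80 (SE 0.25, 95% interval 1.26 to 2.33, adjusted p = 5.06e-05), a ratio of mean signals of 3.53. TSO1 was higher by 1.50 (SE 0.15, 95% interval 1.18 to 1.82, adjusted p = 3.16e-06), a ratio of mean signals of 2.86. At least as high a difference was seen for 3.94% of tested probe sets in the case of INO and for 5.41% in the case of TSO1. No scan period held both ovary and seedling. With scan period as a random block the differences were 1.80 (SE 0.34) for INO and 1.50 (SE 0.20) for TSO1. With chip lot as a block they were 2.01 (SE 0.29) for INO and 1.35 (SE 0.17) for TSO1. Only 2 lots held both tissues, and another lot held seedling 3 and seedling 4 alone. The fit with chip lot thus takes its seedling level from seedling 1 and seedling 2.

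In the stigma against the seedling neither gene was called, against 11% of tested probe sets called higher in stigma. INO differed by 0.27 (SE 0.27, adjusted p = 0.416), and the 95% interval from −0.30 to 0.85 leaves room for a change of either sign below 2-fold. TSO1 was higher in stigma by 0.63 (SE 0.16, 95% interval 0.28 to 0.98, adjusted p = 0.00579), which passed the test, as 25.1% of probe sets did in that direction, without reaching 2-fold. No scan period held both stigma and seedling, so tissue and scan period cannot be told apart here. The TSO1 difference was 0.64 (SE 0.21, adjusted p = 0.0233 in limma) with scan period as a random block. With chip lot as a block it was 0.49 (SE 0.18, adjusted p = 0.0361). The GAPDH control ratio also moved with this comparison, at 1.50 ± 0.67 in stigma and 0.38 ± 0.13 in seedling (SD, n = 3 and 4). With that ratio as a covariate TSO1 differed by 0.43 (adjusted p = 0.292) and no longer passed. With ovary 1, stigma 1 and seedling 4 left out, TSO1 was higher in stigma by 0.38 (adjusted p = 0.0395).

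**Figure D2:**
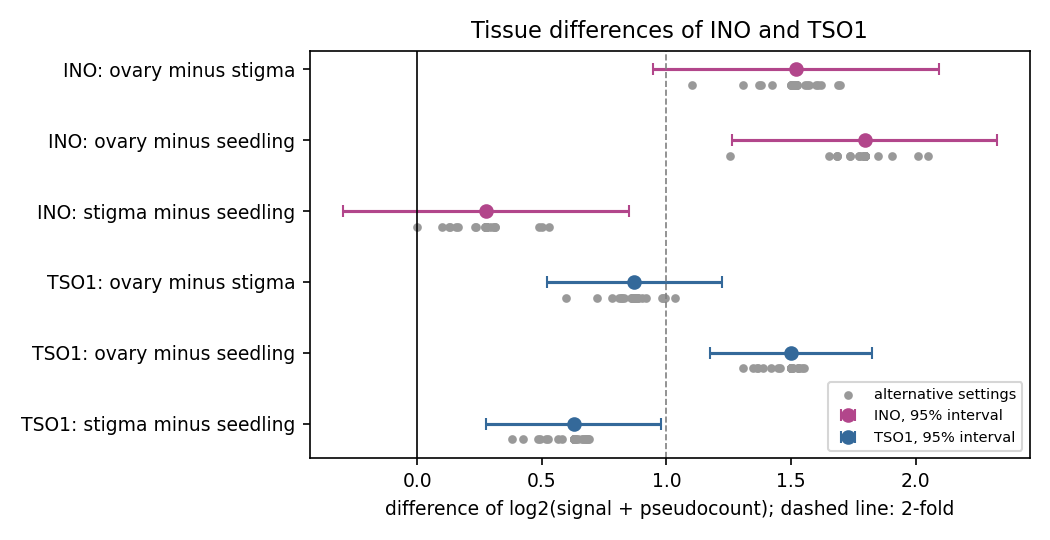
Differences of log2(signal + pseudocount) for INO and TSO1 in the 3 tissue comparisons, with the 95% interval as bars and the value under each alternative setting as a grey point; the dashed line marks 2-fold. The ovary differences of both genes lie to the right of 0 under every setting drawn, and INO between stigma and seedling spans 0.

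INO was therefore among the 598 probe sets (3.85% of those tested) called higher in ovary than in both other tissues. TSO1 was among 350 (2.25%) that passed an adjusted p of 0.05 in all 3 comparisons in the order ovary, stigma, seedling. The log2 ratio of INO to TSO1 on each array tests whether both changed by the same amount. It averaged −1.36 ± 0.13 in ovary, −2.01 ± 0.40 in stigma and −1.65 ± 0.52 in seedling (SD, n = 4, 3 and 4), where only its changes between tissues carry meaning. The ratio was higher by 0.65 in ovary than in stigma, with an exact two-sided permutation p = 0.0286, the smallest 4 against 3 arrays can give, and p = 0.0857 after adjustment over the 3 comparisons. It differed by 0.30 between ovary and seedling (exact permutation p = 0.314, adjusted 0.4) and by −0.35 between stigma and seedling (exact permutation p = 0.4, adjusted 0.4). Unequal change of INO and TSO1 was thus not shown at the threshold of 0.05. A comparison that alone has the smallest possible p stays at 0.0857 after this adjustment, so ovary against stigma could not pass by itself. Without seedling 3 the ratio was higher in ovary than in seedling by 0.51 (exact permutation adjusted p = 0.0429). The ovary and stigma difference holds no seedling array and stayed at 0.65. It took the same adjusted p only because the 3 comparisons are adjusted together. Within tissues INO was the more variable on the log2 scale, with a residual SD of 0.39 against 0.20 for TSO1 and a median of 0.27 over all tested probe sets.

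The other YABBY genes show how INO stands in its family. Of 6 genes in the family list, INO, YAB3 and YAB5 had a named probe set, and these 3 were tested. YAB3 and YAB5 passed the filter on low signal only through their ovary and seedling arrays, and all their stigma arrays lay under its level of 144.2, so that their differences from stigma rest on dim signals and a count over the family carries no weight there. YAB3 and YAB5 are known from the abaxial side of leaves and floral organs. Between ovary and seedling INO was called higher and YAB3 lower, where 11.7% of tested probe sets were called lower and 21.3% had an adjusted p under 0.05 in that direction. YAB3 had 246.6, 273.8, 346.2 and 241.4 in ovary, 117.8, 41.9 and 130.2 in stigma, and 551.1, 536.6, 601.1 and 687.3 in seedling. YAB5 had 145.9, 263.8, 214.2 and 198.4 in ovary, 80.9, 54.5 and 69.3 in stigma, and 289.3, 307.6, 436.9 and 418.9 in seedling. In both genes the seedling arrays were the highest and the stigma arrays the lowest, with no overlap between tissues.

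YAB3 was higher in ovary than in stigma by 1.46 (SE 0.27, adjusted p = 0.001) and YAB5 by 1.37 (SE 0.23, adjusted p = 0.000441), both against stigma signals under 144.2. These calls of YAB3 and YAB5 ended with a pseudocount of 144.2, where the differences were 0.82 and 0.71 and INO stayed called at 1.102, and that of YAB3 also within scan period A (1.04, adjusted p = 0.108). Against the seedling, INO was higher in ovary by 1.80, whereas YAB3 was lower in ovary by 1.06 (log2 difference −1.06, SE 0.25, adjusted p = 0.00323) and YAB5 differed by −0.78 (SE 0.21, adjusted p = 0.00727), which passed the test below 2-fold. The call of YAB3 ended in 4 of 25 alternatives, with −0.81 to −0.99. Between stigma and seedling YAB3 (−2.53, SE 0.27) and YAB5 (−2.14, SE 0.23) were both called lower in stigma, against 15.1% of tested probe sets. This count cannot set the family apart, because YAB3 and YAB5 passed the filter on low signal without any stigma array. INO was not called between stigma and seedling. The ratio of INO to YAB3 was higher by 2.86 in ovary than in seedling, and that of INO to YAB5 by 2.57, each without overlap and each with an exact two-sided permutation p = 0.0286, the smallest possible, and 0.0571 after adjustment over 12 such ratio tests. Both ratios were also higher in stigma than in seedling, by 2.80 for YAB3 and 2.42 for YAB5, without overlap. Each had an exact permutation p = 0.0286 and 0.0571 after adjustment, with dim YAB3 and YAB5 signals in stigma. Between ovary and stigma the same ratios differed by 0.06 (exact permutation p = 0.857) for YAB3 and 0.15 (exact permutation p = 0.657) for YAB5, with overlapping arrays. These ratio tests were added after the values had been seen.

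**Figure D3:**
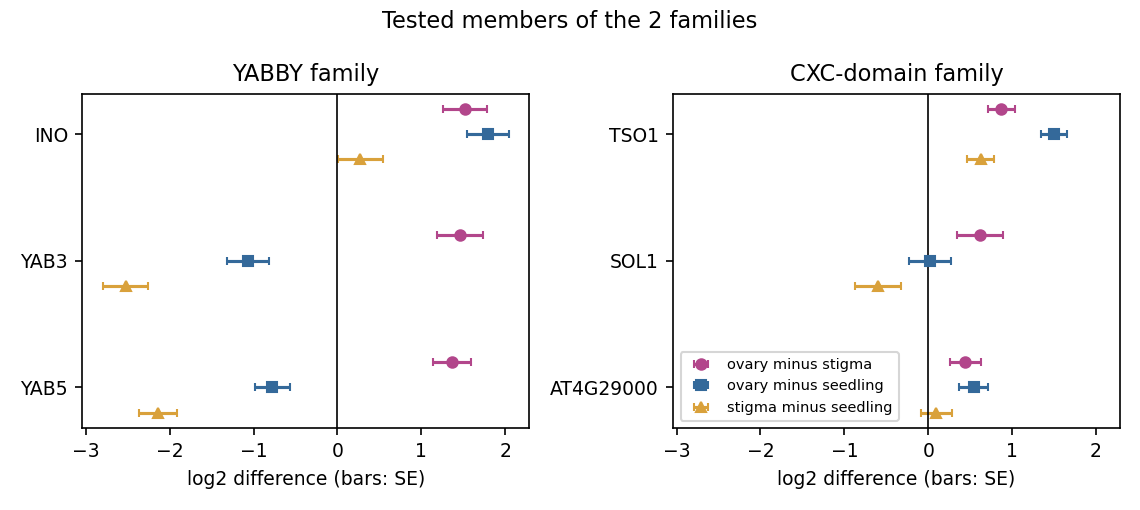
Log2 differences with SE for the tested YABBY genes on the left (INO, YAB3, YAB5) and the tested CXC-domain genes on the right (TSO1, SOL1, AT4G29000) in the 3 comparisons. For ovary minus seedling INO lies above 0 and YAB3 and YAB5 below it.

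The CXC-domain family list held 8 genes, of which 5 had a named probe set and 3 were tested: TSO1, SOL1, its closest relative in name (TSO1-LIKE), and AT4G29000. None was called between ovary and stigma, where 9.51% of all tested probe sets were called higher in ovary. With 3 genes this count is too small to set the family apart. The median difference of these 3 was 0.62, the value of SOL1 itself, against 0.07 over all tested probe sets. SOL1 had 259.9, 325, 235.6 and 342.2 in ovary, 149.7, 207.5 and 191.5 in stigma, and 403.4, 387.2, 162.9 and 246.9 in seedling. Its seedling arrays spanned the whole ovary range, and no comparison passed the test, with differences of 0.62 (SE 0.27, adjusted p = 0.0973) for ovary minus stigma and 0.02 (SE 0.25, adjusted p = 0.947) for ovary minus seedling. AT4G29000 had 212.6 to 341.8 in ovary, 158.6 to 223.9 in stigma and 167.1 to 179.3 in seedling, and was higher in ovary than in seedling by 0.54 (SE 0.17, adjusted p = 0.0184), below 2-fold. AT2G20110 (95.9 to 154.5 in ovary, 99.1 to 161 in stigma and 101.9 to 133.1 in seedling) and AT3G16160, with means of 35.5, 39.5 and 26.4 in the same order of tissues, did not pass the filter and were not tested.

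SOL1 and TSO1 lie close together on chromosome 3, with AT3G22770 between them in the RefSeq TAIR10.1 annotation. The ratio of TSO1 to SOL1 was higher by 1.48 in ovary than in seedling without overlap, with an exact two-sided permutation p = 0.0286 and 0.0571 after adjustment over the 12 ratio tests. It was also higher in stigma than in seedling, by 1.22 without overlap (exact permutation p = 0.0571, adjusted 0.0857). Between ovary and stigma it differed by 0.25 (exact permutation p = 0.343). For TSO1 to AT4G29000 the ovary and seedling differed by 0.96 (exact permutation p = 0.0286, adjusted 0.0571) and ovary and stigma by 0.43 (exact permutation p = 0.171). Stigma and seedling differed by 0.53 in that ratio, with overlapping arrays.

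**Figure D4:**
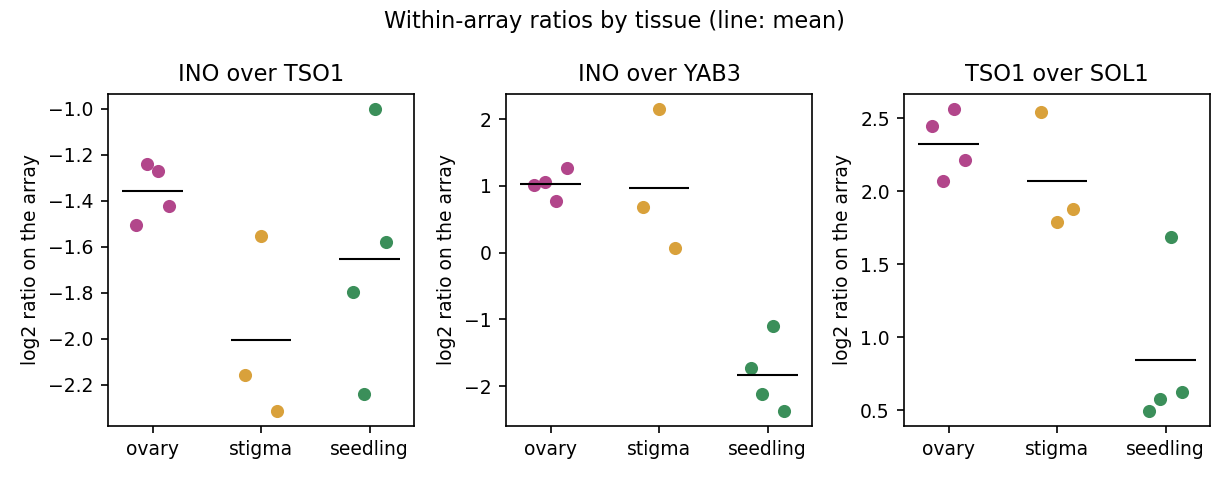
Log2 ratio on each array of INO over TSO1, INO over YAB3 and TSO1 over SOL1 in ovary, stigma and seedling; lines are means. The INO to YAB3 ratio and the TSO1 to SOL1 ratio are lower in every seedling array than in every ovary and stigma array. The INO to TSO1 ratio overlaps between ovary and seedling.

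Other regulators of ovule and integument growth came from a list of 30 genes, of which 5 had a named probe set and 4 were tested. The list's median difference between ovary and stigma was 0.54, against 0.07 over all tested probe sets, and 1 of 4 was called, against 9.51% of all tested probe sets called higher in ovary, a count too small to set the list apart. That was QKY (QUIRKY), a membrane protein that acts with the receptor kinase STRUBBELIG in ovule and floral organ shape, with 674 ± 132 in ovary, 311 ± 96.9 in stigma and 479 ± 53.0 in seedling (ovary minus stigma 1.09, SE 0.20, adjusted p = 0.00105). QKY fell short of 2-fold in 6 of 28 alternatives, at 0.85 to 0.98. HLL (HUELLENLOS), a mitochondrial ribosomal protein needed for ovule growth, had 975 ± 87.9 in ovary, 670 ± 113 in stigma and 341 ± 130 in seedling. HLL was called higher in ovary than in seedling (1.55, SE 0.24, adjusted p = 0.000127) and was not called between ovary and stigma (0.54, SE 0.26, adjusted p = 0.124). It was also called higher in stigma than in seedling (1.01, SE 0.26, adjusted p = 0.0051), against 11% of tested probe sets. That call ended in 9 of 25 alternatives. As for TSO1, no array of 1 tissue reached into the range of another. PHV, a class III homeodomain-leucine zipper gene that marks the inward-facing (adaxial) side of organs, had 662 ± 102 in ovary, 454 ± 112 in stigma and 336 ± 72.7 in seedling. PHV passed the test against seedling just short of 2-fold (0.95, SE 0.19, adjusted p = 0.000937) and not against stigma (0.54, SE 0.20, adjusted p = 0.0555). SEU (SEUSS), a co-repressor in flower and ovule patterning, differed by 0.22 (SE 0.13, adjusted p = 0.201) between ovary and stigma and by 0.19 (SE 0.12, adjusted p = 0.196) between ovary and seedling. SPL, also called NOZZLE, a regulator of the early ovule primordium, stayed at or under 18.6 on all arrays and was not tested.

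None of the 18 genes listed for MYB3R, E2F and related complex subunits had a named probe set. Of 16 mitotic genes, the Aurora kinase genes AUR1 and AUR2, which act in chromosome segregation and division plane placement, were tested, and both were called higher in ovary than in stigma, against 9.51% of all tested probe sets. AUR1 had 680 ± 81.1 in ovary, 292 ± 36.4 in stigma and 550 ± 166 in seedling (ovary minus stigma 1.17, SE 0.21, adjusted p = 0.000753). AUR2 had 362 ± 30.3 in ovary, 151 ± 36.9 in stigma and 258 ± 69.3 in seedling (1.19, SE 0.21, adjusted p = 0.000656). With a pseudocount of 144.2 and within scan period A both stayed below 2-fold, between 0.79 and 0.94. Both genes passed the test lower in stigma than in seedling, as 24.1% of tested probe sets did, with differences of −0.84 (SE 0.21, adjusted p = 0.00461) for AUR1 and −0.70 (SE 0.21, adjusted p = 0.0131) for AUR2, while TSO1 passed it in the other direction.

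The transcripts most like INO and TSO1 over the 11 arrays were found by Pearson correlation of log2 values among the other 8495 tested probe sets that name 1 gene. The genes share the same arrays, tissues and scaling, and the correlations are given as a description. For INO they were AT2G22900 (r = 0.961), AT1G14130 (r = 0.960), AT5G42955 (r = 0.959), DRT100 (r = 0.958) and AT4G22250 (r = 0.952). AT5G42955 had 1434 ± 421 in ovary, 107 ± 26.0 in stigma and 55.9 ± 29.0 in seedling, while DRT100, named for DNA damage repair and toleration, had 4106 ± 277, 1990.2 ± 68.6 and 1868 ± 303 in the same tissues. All 5 had ovary arrays above all stigma and seedling arrays, and overlapping stigma and seedling arrays, a pattern that their choice by correlation with INO favoured. AT1G14130 passed the test in both ovary comparisons below 2-fold, by 0.85 against stigma and 0.93 against seedling. AT5G42955 passed the filter on low signal only through its ovary arrays. Unlike INO, it passed the test between stigma and seedling (0.83, adjusted p = 0.0399 in limma).

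For TSO1 the 5 were AT3G02420 (r = 0.990), AT1G50110 (r = 0.989), AT2G43530 (r = 0.987), AT5G39220 (r = 0.986) and AT1G26795 (r = 0.984). Their tissue ranges were separate in the order ovary, stigma, seedling, at different sizes, a pattern that their choice by correlation with TSO1 favoured. Unlike TSO1, AT3G02420 did not pass the test between ovary and stigma (0.23, adjusted p = 0.126 in limma) or between stigma and seedling (0.21, adjusted p = 0.13). AT3G02420 had 1358 ± 28.5 in ovary, 1152 ± 29.2 in stigma and 992 ± 47.4 in seedling, and AT1G26795 had 654 ± 100.2, 124 ± 23.2 and 57.2 ± 17.9. TSO1 itself ranked 110th for likeness to INO (r = 0.892), and INO ranked 473rd for likeness to TSO1.

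Markers of other tissues were measured beside these genes. The 2 stigma markers with a probe set had a summed signal of 2253 to 5146 in ovary, 22114 to 27473 in stigma and 68.4 to 95.3 in seedling. Most of the ovary sum came from CES, with 2096.5 to 3370.1 in ovary and 9203.8 to 14446.8 in stigma. AT3G12000, entered in that list as SLR1, had 1832.3 on ovary 1 and 124 to 316.4 on the other ovary arrays, against 12910.4 to 14658.7 in stigma. Without ovary 1, INO was higher in ovary than in stigma by 1.57 and TSO1 by 0.88. The 3 photosynthesis markers with a probe set summed to 8376 to 9908 in ovary, 8512 to 9958 in stigma and 30837 to 37638 in seedling, and the 2 root markers to 110 to 200 in ovary, 142 to 186 in stigma and 12458 to 16660 in seedling. Embryo sac markers summed to 264 to 536 in ovary, 276 to 355 in stigma and 196 to 326 in seedling for 3 of 5 genes, and the ranges overlap. Of these, AGL61 averaged 198 ± 63.3 in ovary, 235 ± 60.5 in stigma and 189.6 ± 33.6 in seedling, while EC1.2, a gene of the egg cell, had 118.6, 79, 168.9 and 134.8 in ovary, 94.1, 9.9 and 67 in stigma, and 56.7, 51.4, 7.6 and 6.7 in seedling, so that its ovary arrays lay above all seedling arrays and overlapped with stigma. EC1.2 did not pass the filter and was not tested, and was picked out after its values had been seen. Pollen markers summed to 40.9 to 109 in ovary, 130 to 342 in stigma and 32.3 to 55.2 in seedling for 4 of 5 genes. None of these 4 passed the filter on low signal, so their sums rest on dim signals and were not tested. The part of these tissues in the levels of INO and TSO1 was not tested. Median signal per array was 228 to 256 in ovary, 206 to 226 in stigma and 208 to 230 in seedling.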

How the data were processed

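The deposited table holds 1 linear intensity for each of 22810 probe sets on each of 11 arrays. Its 2% trimmed mean was 500.03 to 500.04 on every array, so the authors had scaled the arrays alike; no source used here names the software. The deposited run information, another kind of unit (other), gave only scan period and chip lot. After 64 control probe sets were set aside, 15524 probe sets were tested, those with a signal over 144.2 (the 40th percentile) on 3 or more arrays, on log2(signal + 17.3), 17.3 being the 10th percentile. limma 3.58.1 in R 4.3.3 (lmFit, and eBayes with a variance trend; 8 residual and 5.2 prior degrees of freedom) gave differences, SE and adjusted p; it was tested on simulated data. Exact permutation tests and figures used Python 3.11.15. The number of arrays limits the precision.

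Groups and replicate numbers came from the titles, because arrays titled stigma are described like those titled ovary. Gene names came from the platform annotation: 13513 probe sets name 1 gene, 503 several and 8730 are not listed there. INO and TSO1, the gene lists and the tests were chosen with earlier results of these data known. Named genes were INO and TSO1, the 5 most like each by correlation, and up to 4 tested members of each list, called ones first; SPL, AT2G20110, AT3G16160 and EC1.2, which were not tested, are named outside this rule. Neighbouring genes, ratio tests against relatives and a fit leaving out ovary 1, stigma 1 and seedling 4 were added after the values had been seen. Alternatives changed scaling, pseudocount, filter, variance trend, blocks, covariate, averaging and the arrays used.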

Additional observations from a re-analysis of the deposited data

Results flagged for a closer look

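Of 70 sets of 4 ovary or 4 seedling arrays examined for the genes named here, 4 held an array set apart from the rest by Dixon's ratio on the log2 scale (critical value 0.829); chance alone gives about 1 in 20. Ovary 1 was the lowest ovary array for INO, with 515.9 against 589.6 to 605.1 on the others. Seedling 4 was the lowest seedling array for TSO1, with 390.6 against 561.5 to 586.3; without it TSO1 was higher in ovary than in seedling by 1.37 and in stigma than in seedling by 0.49. Ovary 2 was high for AT4G22250, one of the transcripts most like INO, with 437 against 309.3 to 323.9. Ovary 1 was high for probe set 263015_at of AT1G23440, a neighbour of INO, with 466.4 against 309.4 to 326.4.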

How the results depend on the processing

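INO was called higher in ovary than in stigma under all 28 alternatives (log2 difference 1.102 to 1.70, adjusted p from 6.59e-05 to 0.0398 in limma) and higher than in seedling under all 25 (1.26 to 2.05). TSO1 was called higher in ovary than in seedling under all 25 (1.31 to 1.55). Between ovary and stigma TSO1 had 0.60 to 1.03; it passed 2-fold only within scan period B (1.03), and its adjusted p was under 0.05 in 27 of 28, the exception being scan period A (0.067). TSO1 between stigma and seedling kept its direction (0.38 to 0.69), with an adjusted p under 0.05 in 24 of 25. INO between stigma and seedling turned to −0.0026 with the RNA quality covariate, and the cause was not tested. The INO to TSO1 ratio between ovary and seedling turned to −0.0501 with the larger pseudocount (144.2), and ran from 0.0998 to 0.514 when arrays were left out; without seedling 3 it was 0.51 with an exact permutation adjusted p of 0.0429, and the ratio between ovary and stigma (0.65; 0.496 to 0.875 when arrays were left out) then had the same adjusted p, since the 3 comparisons are adjusted together. The larger pseudocount, which shrinks all differences, lowered the calls of all probe sets to 1408, against 2450, for ovary and stigma and to 2257, against 3536, for ovary and seedling. Equal array medians moved the INO and TSO1 differences between ovary and stigma to 1.37 and 0.72. Same-numbered arrays are not paired by the labels, and their deviations correlated from −0.08 to 0.26; with the replicate block the ovary and stigma differences were 1.56 for INO and 0.92 for TSO1, and no call of INO or TSO1 changed. Of 49 called differences of the other named genes, 29 were called under every alternative and 0 reversed. The table holds no detection calls, so low signals were set aside by a fixed level alone.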

Other observations

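The genes next to INO and TSO1 in the RefSeq TAIR10.1 order, 2 on each side, gave further values, chosen by position. Beside INO, AT1G23410 was higher in ovary than in stigma by 1.67 (SE 0.30, adjusted p = 0.000718 in limma), with 436 ± 82.4 in ovary, 125 ± 26.2 in stigma and 317 ± 138 in seedling. On the other side of INO, AT1G23440 has 2 probe sets. Between ovary and seedling 263015_at was called lower in ovary, with a difference of −1.03 (SE 0.17, adjusted p = 0.000207), and 262422_at differed by −0.41 (SE 0.19, adjusted p = 0.0809). The call of 263015_at ended in 6 of 25 alternatives, at −0.82 to −0.99, among them leaving out ovary 2, ovary 3, ovary 4 or seedling 4. Between ovary and stigma these probe sets differed by 0.40 (adjusted p = 0.106) and −0.32 (adjusted p = 0.247), and the difference between them was not tested. Beside TSO1, NET1A, which encodes an actin-binding NETWORKED protein of the plasma membrane, had 522 ± 25.6 in ovary, 294 ± 8.70 in stigma and 218 ± 60.3 in seedling. NET1A was called higher in ovary than in seedling (1.24, SE 0.19, adjusted p = 0.000108) and passed the test against stigma below 2-fold (0.79, SE 0.20, adjusted p = 0.00786). Between stigma and seedling NET1A did not pass the test (0.45, SE 0.20, adjusted p = 0.0823), though its arrays did not overlap. TSO1 passed it at 0.63 (SE 0.16), and whether NET1A and TSO1 differ was not tested. The call of NET1A ended with a pseudocount of 144.2 (0.90) and with chip lot as a block (0.96). AT3G22770, on the other side of TSO1, did not pass the filter, with means of 114 in ovary, 123 in stigma and 97.1 in seedling. Whether neighbours share a cause with INO or TSO1 was not tested.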
